A study of Mus musculus with 4 samples.

Results

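The expression of 10 interferon-induced effector genes was measured in mouse vascular smooth muscle cells (the muscle cells of vessel walls) grown in culture: Ifit1, Ifit2, Ifit3, Isg15, Usp18, Rsad2, Cmpk2, Ifi35, Mx1 and Mx2. They were chosen by gene symbol. Of these 10 genes, 9 had a row among the 22488 genes listed, and Mx2 was not analysed here. All 9 passed the filter on low values, a mean of at least 1 FPKM over the 4 libraries. FPKM, the deposited unit, corrects a gene's level for its length and for the size of the library.

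The cells came from C57BL/6 mice, were at passages 4 to 10, and were harvested after 48 hours of transfection. One group had received circEsyt2 siRNA, which targets a circular RNA of the Esyt2 gene (2 libraries), and the other a scramble siRNA, a control without an intended target (2 libraries). Every library therefore came from transfected cells, and without untransfected cells, a fall with the one siRNA and a rise with the other cannot be told apart. Whether the 2 libraries of a group stem from different cultures is not stated in the labels, so the spread behind the p-values is that between these samples and may be technical. The sample titles number the libraries of each group and do not say whether both circEsyt2 siRNA libraries received the same siRNA sequence. The question put to the data is what sets the cells with the one siRNA apart from those with the other.

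Interferons of type I bind a receptor made of IFNAR1 and IFNAR2, whose kinases JAK1 and TYK2 pass the signal on by phosphorylation. This leads to the complex ISGF3, of which STAT2 and IRF9 are parts and which binds interferon-stimulated response elements near the start of many genes. The effectors described here are among the genes most strongly induced by this route in many cell types.

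The response element is shown first because the promoter holds the sequence through which ISGF3 acts. RefSeq windows on GRCm38.p6, from 250 bases before to 50 bases after the start of transcription, were at hand for 7 of the 10 genes, and none is shown for Usp18, Mx1 and Mx2. The core motif searched was GAAA, any 2 bases, GAAA, which on the other strand reads TTTC, any 2 bases, TTTC, and overlapping matches were counted. It lay in the windows of Isg15, Ifit1, Ifit3 and Rsad2, and not in those of Ifit2, Cmpk2 and Ifi35. Of all 27025 genes with a window, 3.99% held it. A match is a description of the letters and not a binding site, and no match says only that these letters are not in the window. The 200 bases before the start are printed below for the 4 genes with a match and for Ifit3b, the close copy of Ifit3, with the motif in capitals.
Isg15, chr4:156200819-156201018, minus strand: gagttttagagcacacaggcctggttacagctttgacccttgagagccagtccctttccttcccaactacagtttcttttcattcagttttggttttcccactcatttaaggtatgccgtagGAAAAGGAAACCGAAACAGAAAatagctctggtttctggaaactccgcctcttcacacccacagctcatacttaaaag
Ifit1, chr19:34640689-34640888, plus strand: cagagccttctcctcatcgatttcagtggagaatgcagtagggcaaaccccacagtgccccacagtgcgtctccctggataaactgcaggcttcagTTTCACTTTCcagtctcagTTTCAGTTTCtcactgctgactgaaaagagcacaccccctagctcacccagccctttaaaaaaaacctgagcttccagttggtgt
Ifit3, chr19:34583329-34583528, plus strand: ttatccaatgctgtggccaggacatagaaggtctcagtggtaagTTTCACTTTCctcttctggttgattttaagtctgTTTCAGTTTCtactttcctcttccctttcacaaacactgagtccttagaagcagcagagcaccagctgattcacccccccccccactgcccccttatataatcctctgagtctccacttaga
Ifit3b, chr19:34607757-34607956, plus strand: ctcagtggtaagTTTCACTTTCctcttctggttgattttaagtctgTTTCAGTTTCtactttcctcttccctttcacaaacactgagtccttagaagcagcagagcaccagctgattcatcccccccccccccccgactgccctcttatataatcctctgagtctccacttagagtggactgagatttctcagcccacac
Rsad2, chr12:26456453-26456652, minus strand: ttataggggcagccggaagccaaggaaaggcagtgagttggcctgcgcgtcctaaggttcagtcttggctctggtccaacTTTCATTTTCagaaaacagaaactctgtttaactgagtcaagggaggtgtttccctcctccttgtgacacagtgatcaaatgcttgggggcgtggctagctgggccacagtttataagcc
In Isg15 3 matches overlapped in 1 run, the nearest ending 56 bases before the start. Ifit1 and Ifit3 each held 2 separate matches on the minus strand of the printed sequence, and Rsad2 held 1. The windows of Ifit1 and its neighbour Ifit1bl2, which is read in the opposite direction, shared 245 bases, including the motifs. The stretches of Ifit3 and Ifit3b aligned with 167 identical bases of 200. The farther motif begins 156 bases before the annotated start in Ifit3 and 188 bases before it in Ifit3b. The printed stretches are thus shifted, and bases at their ends have no counterpart in the other stretch.

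The depth behind the values was solved from the digits of the FPKM values. The library totals came to 3765056 and 3127224 reads with circEsyt2 siRNA and 2516428 and 4116791 with scramble siRNA. Among genes with 1 to 10 reads, 74.9% and 77.0% of the values were even in the circEsyt2 siRNA libraries and 68.2% and 64.0% in the scramble libraries, so the counted unit behaved as single reads of a pair rather than as fragments. The number of independent molecules is therefore lower than the read numbers given here, which cover counting error only. Apart from Mx1, each effector rested on 104 to 2739 reads per library.

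Markers were checked against the labelled cell type. The 12 smooth muscle markers summed to 1266 and 1224 FPKM with circEsyt2 siRNA and 1991 and 1993 FPKM with scramble siRNA, led by the smooth muscle actin gene Acta2. Of the 10 that were tested, 7 were lower with circEsyt2 siRNA and 0 higher, and their part in the effector values was not tested. Myocd and Des, also markers of muscle cells, reached at most 1.05 and 1.04 FPKM. The 16 hepatocyte markers summed to 3706 FPKM in circEsyt2 siRNA replicate 1 and 118 FPKM in replicate 2, against 17.6 and 9.81 FPKM in the scramble libraries, with Alb, the gene of serum albumin, at 2083 FPKM in replicate 1, and 0 of the 16 passed the test. The 10 fibroblast markers summed to 265 and 241 FPKM with circEsyt2 siRNA, against 349 and 347 FPKM with scramble siRNA. Of the 6 of them that were tested, 0 were called higher, and Thy1, Mfap5 and Pdgfra were called lower with circEsyt2 siRNA. Their log2 fold changes were −2.09, −1.22 and −1.34. Dpt and Lum had lower values in both circEsyt2 siRNA libraries and did not pass. Dcn, the highest of the list, had slightly higher values with circEsyt2 siRNA, at 205 and 192 FPKM against 184 and 190 FPKM, and did not pass. The 12 endothelial markers summed to 12.1 and 10.3 FPKM, against 8.20 and 7.87 FPKM. Of the 3 of them that were tested, Kdr was higher, at 4.32 and 4.00 FPKM against 1.23 and 1.26 FPKM, while Cldn5 was at 0 in all libraries. The 8 adipocyte markers summed to 7.26 and 6.02 FPKM, against 9.67 and 8.69 FPKM, and 0 of the 2 tested passed. The part of the fibroblast and endothelial markers in the effector values was not tested. The leukocyte list summed to 47.4 and 10.0 FPKM, against 14.3 and 17.1 FPKM, and 0 of the 5 tested genes passed. The pan-leukocyte gene Ptprc reached at most 0.653 FPKM, in circEsyt2 siRNA replicate 1. In that replicate Lyz2 stood at 21.4 FPKM, against 0.972 FPKM in replicate 2 and 1.21 and 0.923 FPKM with scramble siRNA. Tyrobp stood at 3.98 FPKM in replicate 1 and at 0 elsewhere. Cd68 and Adgre1 were higher in both circEsyt2 siRNA libraries, on few reads. Cd68 measured 3.59 and 1.53 FPKM against 0.632 and 0.966 FPKM, and Adgre1 measured 1.89 and 0.593 FPKM against 0 and 0.150 FPKM. Csf1r went the other way, at 1.74 and 0.262 FPKM with circEsyt2 siRNA against 1.87 and 3.48 FPKM. The part of the leukocyte markers in the effector values was not tested either. Without circEsyt2 siRNA replicate 1 the median log2 fold change of the 9 effectors was −0.93. The hepatocyte markers were above the scramble libraries in replicate 2 as well, and their part in the effector values was not tested. In bulk RNA, fewer cells expressing a gene and less RNA per cell cannot be told apart.

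With circEsyt2 siRNA 5 of the effectors were called lower than with scramble siRNA, and none was called higher. They were Ifit3, Cmpk2, Ifit1 and Ifit2, lower by 4.07-fold to 1.89-fold in mean FPKM, and Mx1, lower by 4.97-fold. Mx1 rested on few reads and passed the filter on low values through the scramble group. Rsad2, Ifi35 and Isg15 had lower values in both circEsyt2 siRNA libraries but did not pass the test. Usp18 had values slightly above those of the scramble libraries, where 29.7% of all tested genes were higher without overlap. The test was limma on log2(FPKM + 1), fitted to 11290 genes, with Benjamini-Hochberg adjusted p under 0.05 as the threshold. Log2 fold changes are given on that scale, where the added 1 shrinks those of genes with low levels. In the same test 7.26% of all genes were called lower and 5.47% higher, against 5 and 0 of the 9 effectors. At an unadjusted p under 0.05 there were 8 effectors, all lower, where 30.1% of all tested genes passed and 15.9% passed as lower. Limma's voom on solved read numbers called 6 effectors lower and 0 higher, and of all genes it called 10.5% lower and 7.97% higher. The median log2 fold change of the 9 was −0.89, beside 0.00 for all tested genes. In 8 of the 9 both circEsyt2 siRNA values lay below both scramble values, as in 31.1% of all tested genes. All calls rested on the 2 scramble libraries together: limma called 0 of 11430 genes when scramble replicate 1 was left out and 0 of 11303 when scramble replicate 2 was. At an unadjusted p under 0.05 there were then 6 and 8 of the 9 effectors, beside 1959 and 2231 genes in all. Without circEsyt2 siRNA replicate 2, Ifit1 and Ifit3 were the effectors still called.

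**Figure D1:**
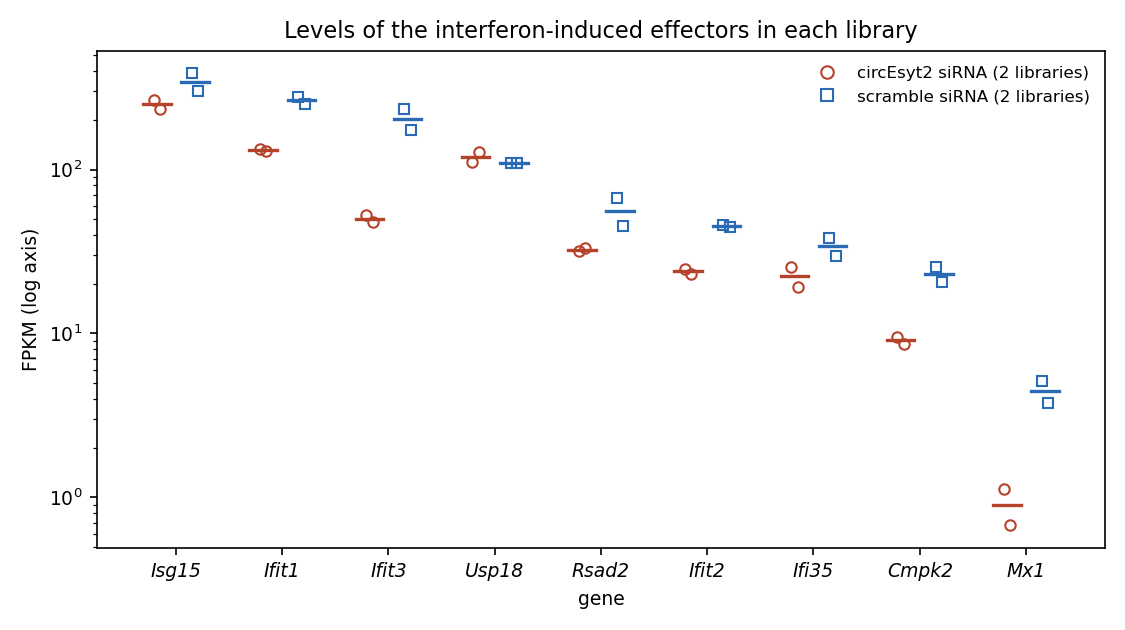
FPKM of the 9 effectors in each library on a log axis, with circEsyt2 siRNA as circles on the left of each pair, scramble siRNA as squares on the right, and the group mean of 2 libraries as a line. For 8 genes both circles lie under both squares, and for Usp18 both lie above.

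The host gene of the targeted circle, Esyt2, measured 40.6 and 48.7 FPKM with circEsyt2 siRNA and 53.4 and 50.6 FPKM with scramble siRNA and did not pass the test (limma, adjusted p = 0.318). This row covers the exons of the whole gene and does not measure the circle.

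The IFIT proteins are built of tetratricopeptide repeats and bind foreign or unusually capped RNA, which keeps it from being translated. Their genes lie side by side on chromosome 19. Ifit3, at 34583531 to 34588731 of GRCm38 on the plus strand, measured 52.5 and 47.8 FPKM with circEsyt2 siRNA against 234 and 174 FPKM with scramble siRNA. The groups lay far apart, and the values rested on 345 and 261 reads against 1028 and 1253 reads. Ifit3 was 4.07-fold lower by mean FPKM, with a log2 fold change of −1.99 (SE 0.16, limma adjusted p = 0.00384), and 0.452% of the tested genes had a lower log2 fold change. Its close copy Ifit3b, at 34607970 to 34613401, measured 15.3 and 15.3 FPKM against 73.1 and 63.4 FPKM, with a log2 fold change of −2.08 (SE 0.13, adjusted p = 0.00256). Of the 150-base stretches of Ifit3 transcripts, 18.5% also occurred in Ifit3b, so part of the reads of these genes cannot be assigned to one of them. Without scramble replicate 1 the log2 fold change of Ifit3 was −1.78 and without scramble replicate 2 it was −2.20.

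Ifit1 encodes the family member that recognises capped RNA lacking the methylation of host messages. It lies at 34640871 to 34650009 on the plus strand and measured 132.8 and 130.3 FPKM with circEsyt2 siRNA against 279 and 250.5 FPKM with scramble siRNA. The replicates of each group lay close together, and the groups did not overlap. Ifit1 was 2.01-fold lower by mean FPKM, with a log2 fold change of −1.001 (SE 0.10, limma adjusted p = 0.00508). Ifit2, which encodes a family member also linked to cell death, lies at 34550694 to 34576419 on the plus strand. It measured 24.7 and 23.2 FPKM with circEsyt2 siRNA against 45.9 and 44.5 FPKM with scramble siRNA. Both groups were tight, and the log2 fold change was −0.89 (SE 0.12, limma adjusted p = 0.0103). The call of Ifit2 was lost without circEsyt2 siRNA replicate 2, at an adjusted p of 0.0542 in limma. The relatives Ifit1bl2 and Ifit1bl1 were low genes and did not pass: Ifit1bl2 had 5.60 and 3.51 FPKM against 6.96 and 8.66 FPKM, and Ifit1bl1 had 2.33 and 1.12 FPKM against 1.92 and 1.39 FPKM.

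Levels of the IFIT genes were also set against that of Isg15 in the same library. In the circEsyt2 siRNA libraries Ifit3 stood at 0.198 and 0.204 of the Isg15 level, and in the scramble libraries at 0.606 and 0.581. Ifit1 stood at 0.501 and 0.556 of the Isg15 level with circEsyt2 siRNA and at 0.722 and 0.835 with scramble siRNA. Ifit2 stood at 0.0931 and 0.0990 of the Isg15 level with circEsyt2 siRNA and at 0.119 and 0.148 with scramble siRNA. None of the 3 ratios overlapped between the groups, and their differences were not tested. The ratios share the Isg15 level and are not independent. The other effectors showed no overlap of this ratio either: Rsad2, Cmpk2, Ifi35 and Mx1 were lower with circEsyt2 siRNA, and Usp18 was higher. The share of all genes whose ratio to Isg15 does not overlap was not computed. By their own values, 31.1% of all tested genes were lower without overlap and 29.7% higher.

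ISG15 is a ubiquitin-like protein that is attached to other proteins during the interferon response and can also be secreted. Isg15, on chromosome 4 at 156199424 to 156200818 on the minus strand, was the highest of the 9 genes in every library. It measured 265 and 234 FPKM with circEsyt2 siRNA against 386 and 300.1 FPKM with scramble siRNA. Both circEsyt2 siRNA values were lower than both scramble values, and the scramble replicates were widely spread. The log2 fold change was −0.45 (95% interval −0.81 to −0.09), and it did not pass after adjustment (limma, adjusted p = 0.104). Without scramble replicate 1 it was −0.27 and without scramble replicate 2 it was −0.63.

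USP18 is the protease that takes ISG15 off its targets, and it also binds IFNAR2 and dampens signalling through the receptor. Usp18, on chromosome 6 at 121245906 to 121270917 on the plus strand, measured 111 and 128 FPKM with circEsyt2 siRNA against 109.7 and 109.6 FPKM with scramble siRNA. Both circEsyt2 siRNA values were above both scramble values, the first of them by little. The log2 fold change was 0.12, with a 95% interval of −0.15 to 0.40, and did not pass the test (limma, adjusted p = 0.506). That interval corresponds to a ratio between 0.900 and 1.32 on the FPKM + 1 scale. On the log2 scale it overlapped the intervals of Isg15 and Ifi35, whose upper bounds were −0.09 and −0.11, but not that of Rsad2, with −0.26. The highest upper bound of the called genes was −0.60, for Ifit2, but those genes were called on these same values. Over the 14 alternative analyses the log2 fold change of Usp18 stayed between 0.02 and 0.22. Relative to Isg15, Usp18 stood at 0.420 and 0.545 with circEsyt2 siRNA and at 0.284 and 0.365 with scramble siRNA. An antisense gene overlaps 4.44% of the Usp18 exon length, and the strand setting of the counting is not given in the sources used here.

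**Figure D2:**
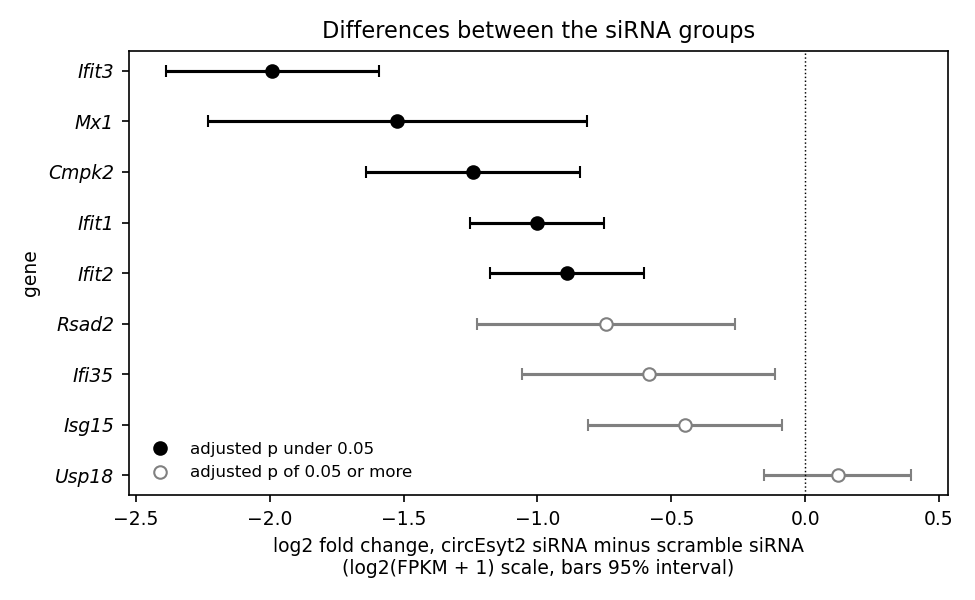
Log2 fold change of each effector, circEsyt2 siRNA minus scramble siRNA, with its 95% interval from limma; filled points passed the adjusted threshold. Ifit3 is the lowest at −1.99, Rsad2, Ifi35 and Isg15 have intervals below 0 without passing the adjusted test, and the interval of Usp18 spans 0.

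Rsad2 and Cmpk2 are neighbours on chromosome 12, and their products work on the same nucleotide pool. RSAD2, or viperin, is a radical SAM enzyme that turns CTP into a chain-terminating analogue, and CMPK2 is a mitochondrial kinase of pyrimidine monophosphates. Cmpk2, at 26469204 to 26479837 on the plus strand, measured 9.57 and 8.60 FPKM with circEsyt2 siRNA against 25.4 and 20.5 FPKM with scramble siRNA. It was 2.52-fold lower by mean FPKM, with a log2 fold change of −1.24 (SE 0.16, limma adjusted p = 0.0103). The call of Cmpk2 was lost without circEsyt2 siRNA replicate 2, at an adjusted p of 0.0668 in limma. Rsad2, at 26442746 to 26456452 on the minus strand, measured 31.7 and 33.1 FPKM with circEsyt2 siRNA against 66.8 and 45.2 FPKM with scramble siRNA. The circEsyt2 siRNA values were close together and the scramble values were not. The log2 fold change of Rsad2 was −0.74 (95% interval −1.23 to −0.26) and missed the threshold (limma, adjusted p = 0.0609). Rsad2 passed under 4 alternatives: a filter at a mean of 5 FPKM, quantile normalization, robust eBayes and voom. Without scramble replicate 1 its log2 fold change was −0.47 and without scramble replicate 2 it was −1.02.

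Ifi35 encodes a leucine zipper protein that forms a complex with NMI. It lies on chromosome 11 at 101448407 to 101458698 on the plus strand and measured 25.4 and 19.3 FPKM with circEsyt2 siRNA against 38.2 and 29.7 FPKM with scramble siRNA. The groups did not overlap, but each pair of replicates was spread widely. Its log2 fold change of −0.59 (95% interval −1.06 to −0.11) did not pass (limma, adjusted p = 0.103). Its partner gene Nmi measured 4.11 and 4.95 FPKM against 6.95 and 6.19 FPKM and did not pass either (adjusted p = 0.166). An antisense gene overlaps 16.8% of the Ifi35 exon length.

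Mx1 encodes a dynamin-like GTPase that blocks influenza and related viruses in the nucleus of mouse cells. C57BL/6 mice carry a defective allele, so the transcript serves here as a marker of the response. Mx1 lies on chromosome 16 at 97447035 to 97462907 on the minus strand and was the lowest of the 9 genes in every library. It measured 1.12 and 0.676 FPKM with circEsyt2 siRNA against 5.14 and 3.79 FPKM with scramble siRNA. These values rest on 16 and 8 reads against 49 and 59 reads, the fewest of any effector. With a mean of 0.899 FPKM in circEsyt2 siRNA libraries and 4.47 FPKM in scramble libraries, Mx1 passed the filter on low values through the scramble group. Mx1 was 4.97-fold lower by mean FPKM, with a log2 fold change of −1.52 (SE 0.29, limma adjusted p = 0.0258). With a pseudocount of 0.1 the log2 fold change was −2.21, and leaving out circEsyt2 siRNA replicate 2 ended the call, at a limma adjusted p of 0.0894.

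By level per gene length, both scramble libraries gave the order Isg15, Ifit1, Ifit3, Usp18, Rsad2, Ifit2, Ifi35, Cmpk2 and Mx1. In both circEsyt2 siRNA libraries Usp18 took the third place before Ifit3. Rsad2 and Ifit2 overlapped in the scramble libraries, and Ifit2 and Ifi35 overlapped in the circEsyt2 siRNA libraries, while the other neighbours in each order did not overlap. The 9 genes summed to 655 and 625 FPKM with circEsyt2 siRNA against 1191 and 978 FPKM with scramble siRNA.

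**Figure D3:**
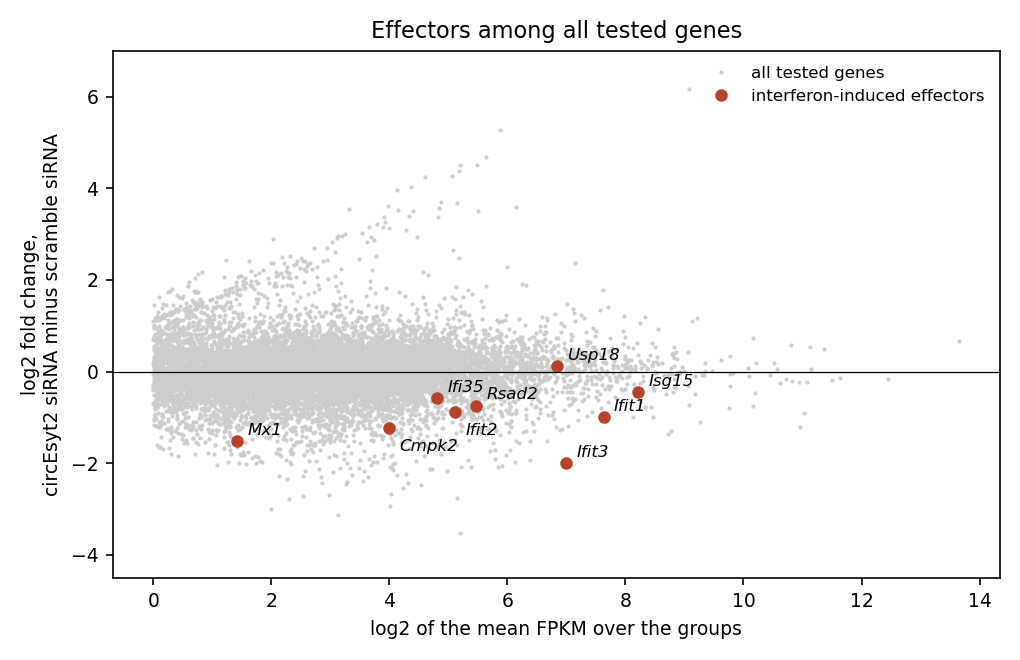
Log2 fold change, circEsyt2 siRNA minus scramble siRNA, of all 11290 tested genes against the log2 of the mean FPKM, with the 9 effectors marked. Of the 9 effectors 8 lie below 0 across the range of levels, and Usp18 lies at 0.12.

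Genes that share the pathway were read from lists. Most called genes were lower. The counts are set against 7.26% lower and 5.47% higher among all tested genes. All calls in these lists, as for every tested gene, were lost without scramble replicate 1 and without scramble replicate 2. Of the 31 called genes outside the 9 effectors that the rule for named genes selects, 22 were still called without circEsyt2 siRNA replicate 1 and 10 without circEsyt2 siRNA replicate 2.

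Conjugation of ISG15 runs through the activating enzyme UBA7, the conjugating enzyme UBE2L6 and, in mouse, the ligase HERC6. Of the 10 tested genes listed for conjugation, 4 were lower and 1 higher, with a median log2 fold change of −0.74. Uba7 measured 1.63 and 1.53 FPKM with circEsyt2 siRNA against 7.42 and 7.19 FPKM with scramble siRNA (log2 fold change −1.69, limma adjusted p = 0.00736). Ube2l6 measured 51.8 and 46.0 FPKM against 81.6 and 84.0 FPKM (limma adjusted p = 0.0147). Herc6 measured 4.32 and 3.20 FPKM against 9.88 and 8.55 FPKM (limma adjusted p = 0.0228). Uba7, Ube2l6 and Herc6 had lower values in both circEsyt2 siRNA libraries, as had 31.1% of all tested genes. Usp18, whose product reverses the route, had not. Of the other Usp genes in the list, Usp5, Usp2 and Usp13 also had lower values in both libraries, and Usp14 overlapped. None of these other Usp genes passed the test. Trim25, whose product is a ligase for both ubiquitin and ISG15, was lower by 1.24 on the log2 scale. The 1 gene called higher, named after its values were seen, was Otulin, by 0.59 on the log2 scale. It encodes a protease of linear ubiquitin chains and not of ISG15. Without circEsyt2 siRNA replicate 2 the list had 1 lower and 0 higher, and without circEsyt2 siRNA replicate 1 it had 0 higher.

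The receptors and signal carriers come next. Of the 18 tested genes of the receptor and ISGF3 list 4 were lower and 0 higher, with a median of −0.14. Irf7, a transcription factor that amplifies the response, was lower, at 40.1 and 41.2 FPKM in circEsyt2 siRNA libraries against 95.7 and 85.4 FPKM in scramble libraries. Socs3, a feedback inhibitor of cytokine receptors, and Ifnar2 were also among those called lower, by 1.42 and 0.59 on the log2 scale. Stat2 and Irf9, which encode parts of ISGF3, did not pass. Stat2 had 16.6 and 21.6 FPKM against 26.6 and 24.5 FPKM (limma adjusted p = 0.164). Irf9 had 16.5 and 17.9 FPKM against 16.9 and 15.4 FPKM (limma adjusted p = 0.696). Ifnar1 had 13.4 and 12.2 FPKM against 15.2 and 14.0 FPKM and did not pass (limma adjusted p = 0.440). Other genes overlap 9.46% of the Ifnar2 exon length and 13.7% of that of Herc6.

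Interferon genes themselves were near the detection limit. Of the 21 ligand genes listed, 1 passed the filter, Ifnb1, which encodes interferon beta. It measured 0.708 and 0.853 FPKM with circEsyt2 siRNA against 1.06 and 5.83 FPKM with scramble siRNA. Scramble replicate 1 lay close to the circEsyt2 siRNA values and replicate 2 well above them, and the gene did not pass (limma adjusted p = 0.271). A single read on 1 kb of exon amounts to 0.243 to 0.397 FPKM in these libraries, and 6 ligand genes were at 0 in all of them.

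The RNA sensing list had 3 of 16 tested genes lower and 0 higher, with a median of −0.57. The 3 were Tlr3, the endosomal receptor of double-stranded RNA, Dhx58, a helicase that tunes the cytosolic sensors, and the kinase gene Ikbke. They were lower by 1.47, 1.004 and 1.14 on the log2 scale. Without circEsyt2 siRNA replicate 1 this list had 6 lower, and without circEsyt2 siRNA replicate 2 it had 0. The OAS family list covers enzymes that make an RNA-like second messenger, OAS-like relatives, not all of which make it, and the target nuclease. It had 3 of 8 lower and 0 higher, with a median of −0.63. Oasl2, Oasl1 and Oas2 were lower by 1.26, 0.85 and 0.78 on the log2 scale. Not all of these calls held when either circEsyt2 siRNA library was left out.

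Among 32 tested relatives and other interferon-induced genes, 13 were lower and 0 higher, with a median of −0.54. Besides Ifit3b the lower genes included Iigp1, an immunity-related GTPase gene, by 1.98 on the log2 scale, and Ifi44, by 1.09. Bst2 had higher values with circEsyt2 siRNA, at 333 and 336 FPKM against 268 and 251 FPKM, and narrowly missed the threshold (limma adjusted p = 0.0552). With a pseudocount of 0.1 the list had 1 gene called higher. Without circEsyt2 siRNA replicate 2 the list had 5 lower. Enzymes of nucleotide supply related to Cmpk2 had 3 of 10 lower and 0 higher, with a median of −0.28. They were Rrm2, Rrm1 and Samhd1. The ribonucleotide reductase gene Rrm2 was lower by 0.97, and Samhd1, a nuclease-like enzyme that breaks down deoxynucleotides, was lower by 1.09. Without circEsyt2 siRNA replicate 2 none of these 3 was called. Large GTPases related to Mx had 2 of 12 lower and 0 higher, with a median of −0.19. Both were guanylate-binding proteins, Gbp3 at −1.34 and Gbp2 at −0.97, whereas Gbp4 at −1.003 did not pass (limma adjusted p = 0.0587). The guanylate-binding and OAS genes belong to families of similar copies, and reads shared among them were not examined.

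**Figure D4:**
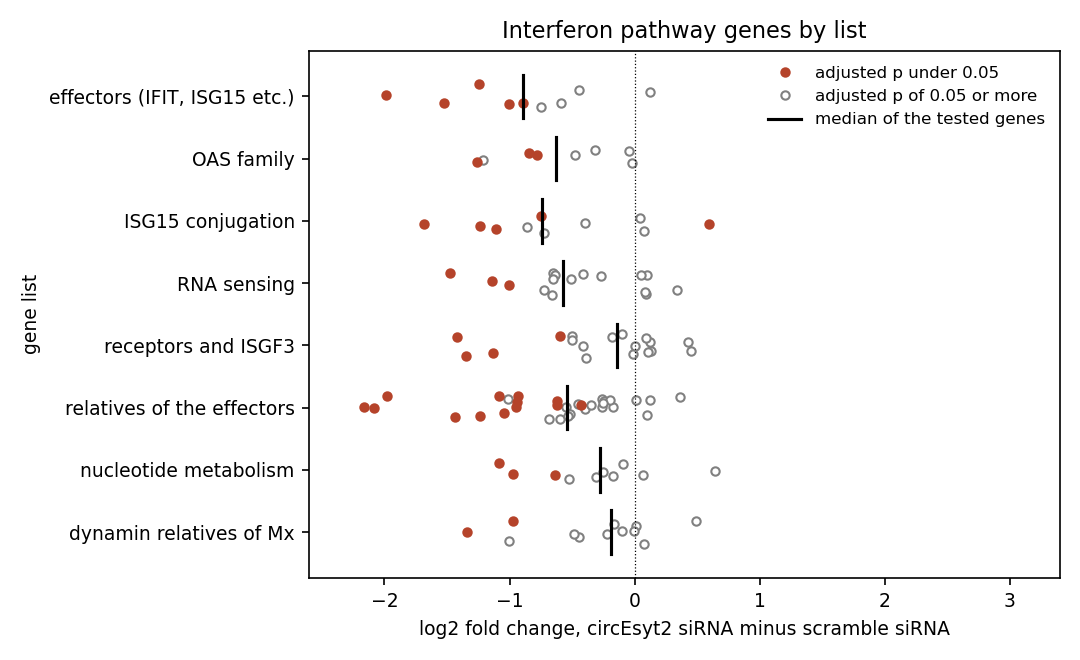
Log2 fold change, circEsyt2 siRNA minus scramble siRNA, of every tested gene in 8 lists, with filled points for those past the adjusted threshold and a black line at the list median. The effectors have the lowest median at −0.89, and the receptor and ISGF3 list the highest at −0.14.

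The genes whose pattern over the 4 libraries was most like the average of the effectors were found by Euclidean distance between centred log2(FPKM + 1) values. Over all tested genes these were Endod1, Prkd1, H2-T22, Mki67, Kif26b, Zdhhc8, Trrap and Gbp9, at distances of 0.0395 to 0.0948. Endod1 was the nearest, with 5.09 and 4.75 FPKM in circEsyt2 siRNA libraries and 11.3 and 8.89 FPKM in scramble libraries. H2-T22 measured 49.4 and 47.1 FPKM against 98.1 and 84.6 FPKM, and Gbp9 measured 10.3 and 8.90 FPKM against 19.7 and 16.8 FPKM. Of the effectors themselves Ifit1 lay nearest to their average, at 0.135, and Usp18 and Ifit3 lay farthest, at 1.09 and 1.07. With 4 libraries in 2 groups, nearness in this measure mostly reflects a similar difference between the groups.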

How the data were processed

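The authors deposited 1 table of FPKM per library, made from read pairs of 150 bases. The submitters' processing notes list Trimmomatic, HISAT2, featureCounts, GRCm38 and mm10. Versions, strand setting and annotation: not given in the sources used here. The library totals and the read numbers behind each value were solved with exon-union lengths of GENCODE M21, since an FPKM is a whole number of reads divided by a length and a total. Of the values above 0, 96.6% came out whole within 0.0001 reads, and the other genes got no read number. The totals count reads assigned to genes, and the number of reads sequenced is not known from them.

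Groups and replicate numbers came from the sample titles. Differences were tested two-sided on log2(FPKM + 1) with limma 3.58.1 under R 4.3.3, using lmFit and a trended eBayes, in genes averaging 1 FPKM or more, adjusted over all genes by the Benjamini-Hochberg method at 0.05. The same steps were tested on simulated reads. The alternatives were 2 other pseudocounts, 2 other filters, 2 scalings, 2 variance priors, voom, a replicate block and leaving out each library. Coordinates are 1-based on GRCm38 from M21, and promoter windows are from RefSeq on GRCm38.p6. The 150-base stretches were compared between M21 transcripts.

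The 10 genes and the lists were chosen with earlier results of these data known. The rule named all effectors, the 3 genes with the smallest p of each pathway list, Stat2, Irf9, Irf7, Uba7, Ube2l6, Herc6, Nmi, Ifnar1, Ifnar2, Ifnb1 and Esyt2, and the 8 genes nearest in pattern. Otulin, Usp2, Usp5, Usp13, Usp14, Bst2, Ifit1bl1, Ifit1bl2 and the single marker genes are outside this rule and were chosen after their values were seen. The single marker genes were Acta2, Myocd, Des, Alb, Ptprc, Lyz2, Cd68, Adgre1, Tyrobp, Csf1r, Thy1, Mfap5, Pdgfra, Dpt, Lum, Dcn, Kdr and Cldn5. One gene that the rule selects is not reported here.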

Additional observations from a re-analysis of the deposited data

How the results depend on the processing

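Of the 125 values of single effectors under 14 alternatives, all kept their direction. Outside the analyses that left out a library, no effector lost its call, except that Mx1 was not tested with a filter at a mean of 5 FPKM, and Rsad2 gained one under 4 alternatives. The median of the 9 ranged from −1.02 to −0.85 when 1 library was left out. Leaving out 1 library in turn gave 0 to 5 effectors lower and 0 higher, and 0 to 622 genes lower and 0 to 405 higher over all tested genes, against 820 and 617 in the main analysis. Without scramble replicate 1 or 2, 1959 and 2231 genes had an unadjusted p under 0.05, and the smallest adjusted p was 0.170 and 0.110. With 3 libraries the group of 1 is assumed to vary like the other. eBayes without a trend called 374 genes lower and 203 higher, and the same 5 effectors. It called 7 of the relatives, 2 of the ISG15 conjugation list lower, and 1 gene each of the RNA sensing, OAS, nucleotide and dynamin lists, whereas voom called 7 of the RNA sensing list. A replicate block called 604 genes lower and 404 higher, and the same 5 effectors. Same-numbered libraries did not deviate together (r = −0.05 across 11290 genes, which are not independent replicates). With 2 libraries per group, this correlation cannot show whether same-numbered libraries share a culture or a batch. Depth limits Mx1 and Ifnb1 most.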
